A study of Mus musculus with 12 samples.

Results

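The genes described here were *Rprl1*, *Rprl2* and *Rprl3*, which are named for their likeness to the RNA of ribonuclease P (RNase P), together with the RNase P RNA *Rpph1*, the RNase MRP RNA *Rmrp*, the telomerase RNA *Terc* and the 7SK RNA *Rn7sk*. They were chosen by name, with the values of the *Rprl* genes in these tables known, so their changes are given as a description and without a test. Of the 7 genes, 4 had a row among the 22911 genes of each table (*Rprl1*, *Rprl2*, *Rprl3* and *Terc*), and *Rpph1*, *Rmrp* and *Rn7sk* were not analysed here.

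The RNA came from mouse embryonic stem cells (ESCs) cultured for 48 h with FGF2 and Activin A, which turns them into epiblast-like cells (EpiLCs) with features of the early post-implantation epiblast. There were 3 libraries, each from an independent ESC line, for control females (Kdm5c fl/fl), mutant females (Kdm5c Δ/Δ), control males (Kdm5c flY) and mutant males (Kdm5c ΔY). *Kdm5c*, called *Smcx* in the labels, encodes a demethylase of histone H3 lysine 4. The Δ allele lacks exons 11 and 12, which encode the catalytic JmjC domain, while the controls carry the floxed allele, so controls and mutants differ in the recombined exons and not in the presence of a targeted allele. The labels give the strain as C57BL/6J and the paper describes a mixed background.

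Each table gives the authors' mean normalized count of a gene per genotype, that is, reads divided by a size factor for the library and averaged over 3 libraries. The reads of the single libraries were worked out from these means for 22808 genes, and the libraries of a genotype were named A, B and C by falling size factor. Between 5354215 and 10863314 reads were recovered per library. *Kdm5c* itself stood at 2360 ± 60.7 normalized counts in control females and 1453 ± 49.7 in mutant females (SD, n = 3), and at 2226 ± 133 and 1938 ± 39.7 in males, and its libraries did not overlap between genotypes in either sex. Counts over the whole gene check the deletion only in part, because exons outside the deletion still gave reads.

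RNase P is the enzyme that removes the 5′ leader from precursor tRNAs, and RNase MRP is its relative that processes precursor ribosomal RNA. Both consist of an RNA made by RNA polymerase III (Pol III) and a largely shared set of proteins. 7SK is another Pol III transcript, which holds the elongation factor P-TEFb in an inactive particle. *Terc*, the template of telomerase, is made by RNA polymerase II in mammals, so a Pol III label does not hold for it.

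The 3 *Rprl* genes are shown as mm9 (NCBIM37) gives them because they are close copies of each other, which bears on how short reads were assigned. *Rprl1* lies at chr6:69276838-69277164 on the minus strand, a single-exon noncoding gene of 327 bases between the immunoglobulin kappa variable genes *Igkv4-68* and *Igkv4-63*. *Rprl2* lies at chr3:22150296-22150585 on the plus strand, has 290 bases, and is 34.8 kb from *Tbl1xr1*. *Rprl3* lies at chr8:3803069-3803358 on the minus strand, also has 290 bases, and is 54.1 kb from *Cd209a* and 38.7 kb from *Gm7381*. GENCODE annotates all of them as RNase P RNAs, and they were matched to the RefSeq symbols by shared neighbors. RefSeq gives shorter genes of 238, 238 and 235 bases. No annotated gene overlapped any of them, and no gene of the tables lay within 10 kb. In the lines below, capitals mark bases that differ from *Rprl3* (in the *Rprl1* and *Rprl2* lines) or from *Rprl2* (in the *Rprl3* line). All 290 aligned bases are shown, without the 3′ end of *Rprl1* beyond them.
Rprl1: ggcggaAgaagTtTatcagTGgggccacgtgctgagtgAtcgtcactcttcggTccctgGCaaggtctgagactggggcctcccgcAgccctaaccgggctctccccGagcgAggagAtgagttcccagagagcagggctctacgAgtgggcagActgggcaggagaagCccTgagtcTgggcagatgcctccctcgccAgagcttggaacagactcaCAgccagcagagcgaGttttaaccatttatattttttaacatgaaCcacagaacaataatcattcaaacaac
Rprl2: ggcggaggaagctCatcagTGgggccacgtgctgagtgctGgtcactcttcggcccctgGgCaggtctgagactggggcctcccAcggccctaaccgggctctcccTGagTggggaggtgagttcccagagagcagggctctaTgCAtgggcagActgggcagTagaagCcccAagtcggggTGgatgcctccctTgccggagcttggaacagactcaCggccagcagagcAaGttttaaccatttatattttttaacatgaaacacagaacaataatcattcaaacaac
Rprl3: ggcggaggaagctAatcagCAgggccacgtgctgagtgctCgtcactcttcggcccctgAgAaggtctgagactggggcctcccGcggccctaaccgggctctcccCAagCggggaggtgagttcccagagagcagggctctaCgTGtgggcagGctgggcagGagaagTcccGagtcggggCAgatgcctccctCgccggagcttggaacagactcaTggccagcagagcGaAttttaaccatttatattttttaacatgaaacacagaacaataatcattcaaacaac
*Rprl2* and *Rprl3* matched at 267 of 290 bases (92.1%), *Rprl1* and *Rprl3* at 267 (92.1%) and *Rprl1* and *Rprl2* at 262 (90.3%). Of the 23 differences between *Rprl2* and *Rprl3*, 20 lay in the first 204 bases and 3 in the last 86. The first 204 bases of *Rprl2* and *Rprl3* also matched chr14:51427239-51427442, at 93.1% and 94.1%. That stretch ends 179 bases from the annotated start of *Parp2*, the gene that RefSeq places next to *Rpph1*. Of 88 matches of *Rprl2* in the genome, 81 were to its last part only.

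The likeness of the *Rprl* genes extended to the DNA on either side. The 250 bases before the annotated start were 96.0% to 96.8% identical in every pair. *Rprl2* and *Rprl3* shared a block of 4304 bases, at 88.6% to 92.7% identity in its aligned parts, which began 2449 bases before *Rprl2* and ended 1565 bases after it. *Rprl2* sat between a pair of direct repeats of 333 bases (90.7% identical to each other), whose outer edges lay 4305 bases apart, and 163 copies of the downstream repeat were found in mm9 at 90% identity over 90% of its length. *Rprl3* sat between direct repeats of 336 bases (94.9% identical), 4264 bases apart from edge to edge, with 51 such copies. No such repeat pair flanked *Rprl1*. Its alignment to the *Rprl3* locus spanned 2211 bases from the first to the last aligned base, in 3 hits, and only 260 of them lay before the gene.

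**Figure D1:**
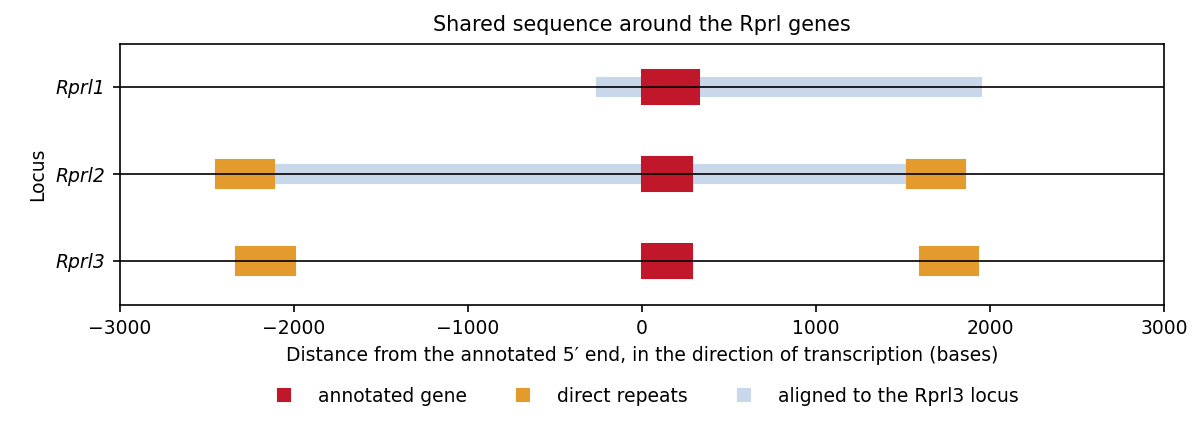
Map of the *Rprl1*, *Rprl2* and *Rprl3* loci, with the distance from the annotated 5′ end in bases on the x axis, drawn to scale. Red boxes are the annotated genes and orange boxes the direct repeats. Pale bars run from the first to the last base aligned to the *Rprl3* locus. Repeats of 333 and 336 bases enclose *Rprl2* and *Rprl3* but not *Rprl1*.

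The 60 bases before each gene are shown because Pol III genes of the RNase P type carry their promoter upstream, often with a TATA box. Capitals mark TATAAA in *Rprl1* (chr6:69277165-69277224, minus strand) and AATAAA in *Rprl2* (chr3:22150236-22150295, plus strand) and *Rprl3* (chr8:3803359-3803418, minus strand).
Rprl1, 60 bases upstream: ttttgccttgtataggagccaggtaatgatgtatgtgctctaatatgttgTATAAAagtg
Rprl2, 60 bases upstream: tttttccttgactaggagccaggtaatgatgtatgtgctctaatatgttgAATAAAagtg
Rprl3, 60 bases upstream: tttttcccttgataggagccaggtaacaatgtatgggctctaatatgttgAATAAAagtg
The capitals ended 4 bases before the annotated start in all 3 genes. Among 32851 promoters of RefSeq (GRCm38), the same window of 60 bases held TATAAA on either strand in 3.92% and AATAAA in 4.11%. The first of these letters was the difference between *Rprl1* and the other copies at this place, and a match of letters does not show that a site is used.

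*Rprl2* and *Rprl3* were the most highly counted genes of the controls and nearly disappeared from the mutants of both sexes, and *Rprl1*, counted far less, went the same way. The control means of *Rprl2* and *Rprl3* were too high to be resolved into single libraries, so the authors' means are given for them. *Rprl3* had a mean of 96419 normalized counts in control females and 122396 in control males, and ranked first among all 22911 genes in both. *Rprl2* ranked second in both, with a mean of 77932 in females and 99400.5 in males. Together *Rprl2* and *Rprl3* made up 1.79% of all normalized counts in control females and 2.35% in control males, against 0.0112% and 0.0181% in the mutants.

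In mutant females, *Rprl2* stood at 404, 413 and 312 normalized counts in libraries A, B and C, a mean of 377 ± 55.9 (SD, n = 3). The mutant mean was 0.483% of the authors' control mean, 207-fold lower, or -7.69 as a log2 ratio of the means with a pseudocount of 1. *Rprl3* stood at 829, 808 and 583 in the same libraries (740.1 ± 136), 130.3-fold below the control mean (log2 ratio -7.02). Library C was the lowest for both genes, and none of the mutant libraries came near the control means.

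In mutant males, *Rprl2* stood at 1294, 275 and 236 normalized counts in libraries A, B and C, a mean of 602 ± 600.3 (SD, n = 3). This mean was 165-fold below that of the control males (log2 ratio -7.37). *Rprl3* stood at 1883, 655 and 607 (1048 ± 723), 117-fold below the control mean (log2 ratio -6.87). Library A was several times higher than B and C for both genes. Without it, *Rprl2* was 389-fold lower in mutant than in control males and *Rprl3* 194-fold lower.

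*Rprl1* could be followed in every library. It stood at 187, 164 and 158 normalized counts in control females and at 4.70, 5.89 and 3.03 in mutant females, which were 6, 7 and 3 reads. Control males had 177, 170 and 142 (163 ± 18.5), and mutant males had 1.62, 4.05 and 3.10, which were 2, 4 and 3 reads. The groups did not overlap in either sex. From the summed reads (477 against 16 in females and 441 against 9 in males) the ratio of control to mutant was 36.7 in females, with an exact 95% counting interval of 22.4 to 64.8, and 58.5 in males (30.6 to 129). Counting intervals leave out the spread between cell lines and copies made by PCR.

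**Figure D2:**
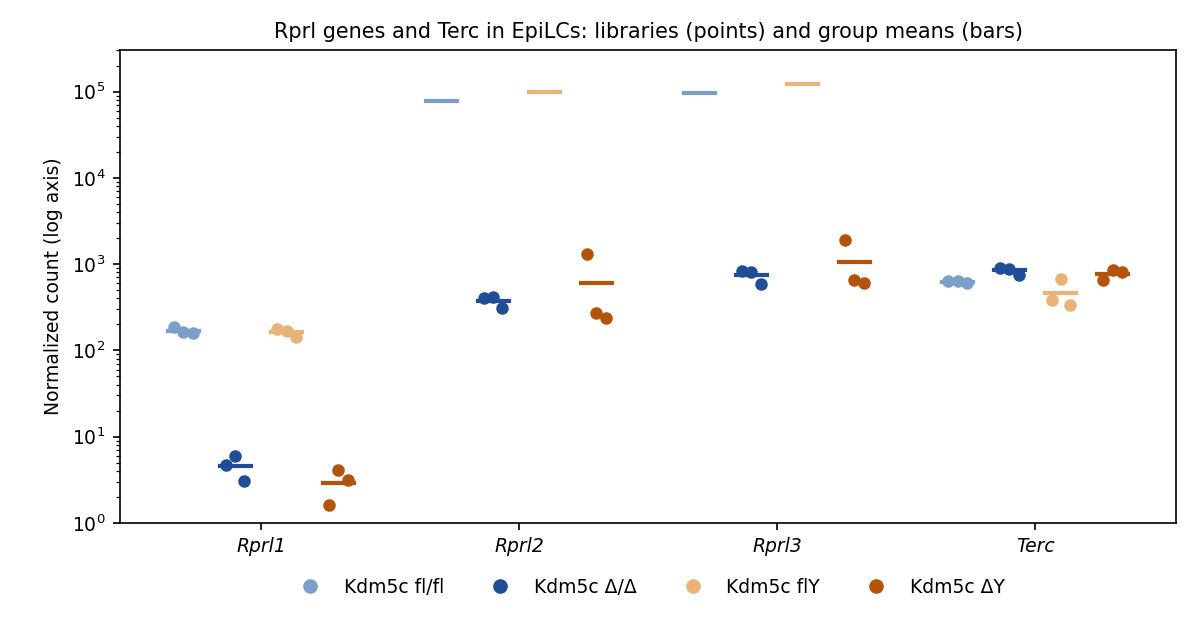
Normalized counts (log axis) of *Rprl1*, *Rprl2*, *Rprl3* and *Terc* in the 4 genotypes. Points are libraries and bars are group means, and the controls of *Rprl2* and *Rprl3* have only the authors' means, at 77932 to 122396, against 236 to 1883 in single mutant libraries.

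The 3 *Rprl* genes had the lowest log2 ratios of all 14235 genes with a mean of at least 10 when a gene was ranked by the smaller of its falls in the 2 sexes. Ranked within females, *Rprl2*, *Rprl3* and *Rprl1* were first, second and 8th from the bottom, and within males first, second and 5th. A log2 ratio below -3 in both sexes was found for 7 genes (0.0492%), namely the *Rprl* genes, *Kcnj3*, *Pcdh11x*, *Gm10439* and *Cdhr1*, the last 4 of which were picked out after their values were seen. *Kcnj3*, a potassium channel subunit, came next after the *Rprl* genes, with -4.36 in females and -5.26 in males. The other 3 lay between -4.01 and -3.16. *Rprl2* and *Rprl3* alone were below -6 in both sexes. These ranks describe the values that led to the choice of the genes and are no support for it.

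**Figure D3:**
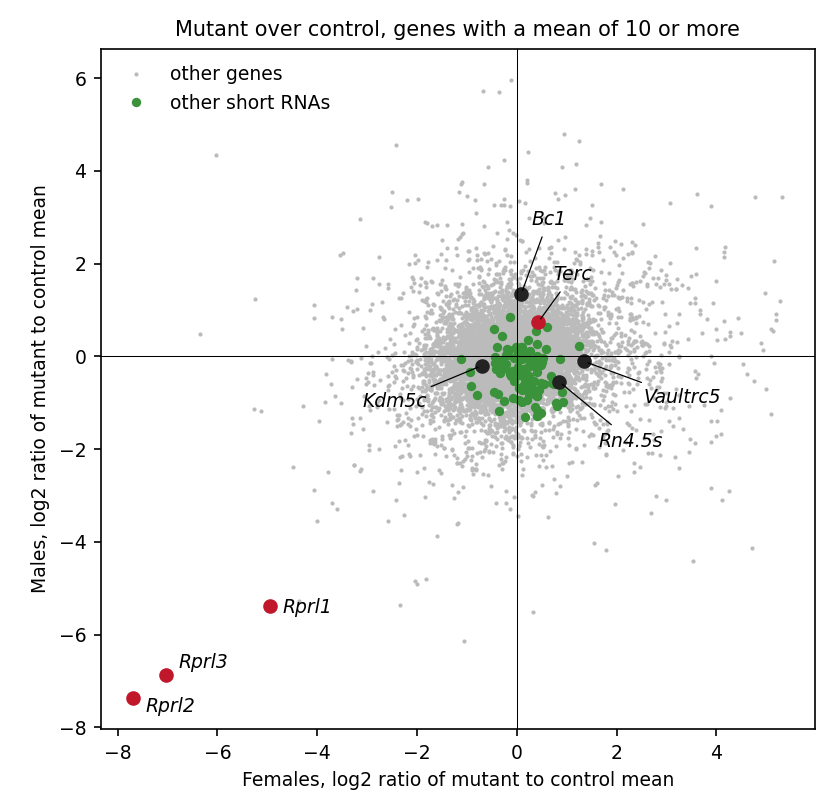
Log2 ratio of the mutant to the control mean (pseudocount 1) in females (x axis) and males (y axis) for the 14235 genes with a mean of at least 10. *Rprl1*, *Rprl2* and *Rprl3* (red) stand at the lower left, at -7.69 to -4.94 in females and -7.37 to -5.39 in males, apart from *Terc* (red), the other short RNAs (green) and nearly all other genes (gray).

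The *Rprl* genes did not fall in fixed proportion. *Rprl2* and *Rprl3* have the same annotated length, so their counts can be set against each other. The ratio of *Rprl3* to *Rprl2* was 1.24 in control females and 1.23 in control males, from the authors' means. It was 2.05, 1.96 and 1.87 in the libraries of mutant females, and 1.45, 2.38 and 2.57 in those of mutant males. Each of the 6 mutant libraries thus had relatively more *Rprl3* than the control means, and the smallest ratio was that of male library A, which held the most *Rprl* reads, with 3179 normalized counts of the 3 genes against 934 and 846 in B and C. The counts of *Rprl1* were 0.176% of those of *Rprl3* in control females and 0.133% in control males, and 0.614% and 0.279% in the mutants.

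The sexes differed less than the genotypes. Control males had slightly more *Rprl2* and *Rprl3* than control females, by log2 ratios of 0.35 and 0.34, which have no spread because the control libraries were not resolved. *Rprl1* was about the same in both control sexes (log2 ratio -0.06). Per kilobase of annotated length, mutant cells had 1299 (females) and 2075 (males) normalized counts of *Rprl2* and 2552 and 3615 of *Rprl3*, which is of the order of *Terc*, at 1091 to 2001 over the 4 genotypes. The controls had 268730 to 422054 per kilobase of these 2 genes. That mutant males exceeded mutant females rested on male library A. Without it the male means were 255 normalized counts of *Rprl2* and 631 of *Rprl3*, not per kilobase. The mutant female means were higher, at 377 and 740.

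Reads of the *Rprl* genes were assigned with some uncertainty, because the authors kept uniquely mapped reads of 50 bases with at most 1 mismatch. Of the 241 stretches of 50 bases in *Rprl2*, 231 occurred once in mm9, and 228 had no other place within 1 mismatch. For *Rprl3* these were 232 and 210 of 241, for *Rprl1* 278 and 241 of 278, and for *Terc* 374 and 358 of 374. In *Rprl1*, 9 stretches lay within 1 mismatch of *Rprl2* and 7 within 1 mismatch of *Rprl3*, so a changed base in a read of those could place it on *Rprl1*. How many *Rprl1* reads arose so was not tested.

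Over the 12 libraries, among the genes whose log2(normalized count + 1) was most like that of *Rprl1* (Pearson's r, 14131 genes with a mean of at least 10) were *Pla2g12a* (0.99), a secreted phospholipase, *Scml2* (0.99), a Polycomb group gene, *Rsph1* (0.98) and *Sik2* (0.98). The summed level of the 3 *Rprl* genes could not be used, since the controls of *Rprl2* and *Rprl3* were not resolved. The 12 points fell into a control and a mutant cloud, so that any gene split by genotype in the same direction scores highly. The falls of these genes were smaller than that of *Rprl1*. *Scml2* fell from 770.2 to 128 normalized counts in females and from 913 to 77.5 in males, and *Pla2g12a* from 383 to 191 and from 368 to 168.

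*Terc* went the other way. It stood at 635, 640.1 and 608 normalized counts in control females and at 912, 886 and 742 in mutant females, so that the groups did not overlap, and the mutant mean was 1.35-fold that of the control (log2 ratio 0.43). In males it stood at 384, 665 and 336 in controls and at 646, 850.4 and 815 in mutants. Control library B exceeded mutant library A, so the male groups overlapped, with means of 462 ± 178 and 770.5 ± 109 (SD, n = 3) and a log2 ratio of 0.74. Without control library B the male log2 ratio was 1.10. Counted from the highest log2 ratio, *Terc* ranked 3146th of 14235 genes in females, where limma called 50.1% of all genes, and 1282nd in males. *Terc* lies at chr3:96218360-96218782 on the minus strand (mm9), a noncoding gene of 423 bases with no overlapping gene, and it shares no alignable sequence with the *Rprl* genes. The genes most like *Terc* over the 12 libraries were *Rbmxl2* (r = 0.98), *D030056L22Rik* (0.97), *Srxn1* (0.96), *Klf16* (0.96) and *S1pr2* (0.96).

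The other Pol III RNAs with a row were *Rn4.5s*, *Vaultrc5* and *Bc1*, and the lowest log2 ratio among them was -0.54. The 4.5S RNA *Rn4.5s* was the third most highly counted gene of mutant females. The authors' means of it were 18157.5 in control and 32693 in mutant females, a log2 ratio of 0.85, and 17697.5 in control and 12135 in mutant males, a log2 ratio of -0.54. *Vaultrc5*, a vault RNA, stood at 104, 168 and 160.1 normalized counts in control females and 279, 276 and 548 in mutant females. This was a log2 fold change of 1.30 ± 0.21 (SE, limma, adjusted p = 3.43e-05). In males it stood at 170.5, 192 and 191 in controls and 114, 136 and 264 in mutants (-0.20 ± 0.28, adjusted p = 0.66 by limma). The brain cytoplasmic RNA *Bc1* had 40.2, 35.1 and 21.1 in control females and 29.0, 36.2 and 37.4 in mutant females. In males it had 13.0, 10.3 and 8.62 in controls and 14.6, 40.5 and 30.0 in mutants, which did not overlap but missed the threshold (log2 fold change 1.24 ± 0.47, adjusted p = 0.14 by limma).

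Other short noncoding RNAs gave a view of how such transcripts fared in the same libraries. They were the 117 rows with symbols of small nucleolar, Cajal body and small nuclear RNAs, most of which are processed from introns or made by RNA polymerase II. Their summed level, over 116 resolved rows, ranged from 41166 to 59278 normalized counts in control females, from 37469 to 66199 in mutant females, from 30147 to 64050 in control males and from 30513 to 43008 in mutant males. The ranges overlapped in both sexes. In females, 20 of the 107 tested rose and 12 fell by limma at an adjusted p of 0.05, while of all 19572 genes tested 50.1% were called, 25.4% as higher and 24.7% as lower. Scaling by total reads gave 14 that rose and 15 that fell, and the balance also rested on single libraries, with 32 higher and 6 lower without mutant library B but 11 higher and 17 lower without mutant library C. *Snora41* rose most among those called (log2 fold change 1.33 ± 0.17, adjusted p = 2.48e-06, limma), and *Scarna3b* (-1.80 ± 0.50, adjusted p = 0.0055) and *Snord71* (-1.32 ± 0.43, adjusted p = 0.017) fell by limma, at means of under 13 normalized counts. *Snord71* was not called in 5 of 11 fits, with an adjusted p of up to 0.094 by limma. In males limma called 0 of 106, with 13 at an unadjusted p under 0.05 and 0 called by limma voom, against 7.80% of all 21872 genes. Their median log2 fold change was -0.31, beside -0.16 over all genes tested in males.

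The proteins that work with these RNAs were counted from lists chosen with earlier results of these data known. In females 35 of the 65 tested genes rose and 6 fell by limma, beside 25.4% and 24.7% of all genes. With counts scaled by total reads, 32 rose and 10 fell, and in a fit over all 12 libraries 26 rose and 3 fell. In males 2 rose and 4 fell, beside 4.21% and 3.59% of all genes. The male count rested on single libraries. It was 17 of 65 without mutant library A, 8 without control library B, 2 without mutant library B, and 0 without mutant library C, control library A or control library C.

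Of the 11 proteins of RNase P and RNase MRP, 5 rose and 1 fell in females, and 2 rose in males. This was 54.5% called in females, beside 50.1% of all genes, and 18.2% in males, beside 7.80%. *Pop1*, the large scaffold subunit of both enzymes, stood at 183, 191 and 216 normalized counts in control females and 805, 879.6 and 811 in mutant females. This was a log2 fold change of 2.08 ± 0.08 (SE, limma, adjusted p = 2.4e-13). In males it stood at 228, 258 and 207 in controls and 942, 324 and 396 in mutants, where the mutant libraries were all higher but varied widely (1.10 ± 0.33, adjusted p = 0.076 by limma). Without mutant library A the male value was 0.64 and passed the test (adjusted p = 0.015, limma), and it also passed without mutant library B (0.043) and in a fit over all 12 libraries (0.012). *Rpp25*, an RNA-binding subunit, had 94.6, 71.4 and 71.2 in control females and 321, 289.6 and 338 in mutant females. In control males it had 88.7, 151 and 67.5, all below the mutant males at 199.6, 200.7 and 224. It rose in both sexes, by log2 fold changes of 2.00 ± 0.12 (adjusted p = 1.57e-10, limma) and 1.10 ± 0.27 (adjusted p = 0.038). *Rpp14*, another subunit, rose in both sexes too, by 1.02 ± 0.08 (adjusted p = 3.48e-09, limma) and 0.95 ± 0.18 (adjusted p = 0.014). In males *Rpp25* missed the threshold in 4 of 12 fits and *Rpp14* in 3, each without a single library (control A or C or mutant C, and for *Rpp25* also mutant B). *Pop7* (0.66) and *Rpp38* (0.37) rose in females, and *Rpp25l*, the paralog of *Rpp25*, fell by 0.38 on the log2 scale. The *Rpp25* and *Rpp14* RNAs were thus higher in the mutants of both sexes, in which the *Rprl* RNAs were far lower.

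Of the 18 Pol III subunits, 14 rose and 0 fell in females (77.8% called, beside 50.1% of all genes). Scaled by total reads, 13 rose and 1 fell. The largest log2 fold changes were those of *Polr3f* (0.90 ± 0.07, adjusted p = 6.18e-09, limma), *Crcp* (0.78 ± 0.11, adjusted p = 7.58e-06) and *Polr3b* (0.65 ± 0.06, adjusted p = 2.67e-08), the second-largest subunit. The median over the list was 0.41, beside 0.004 over all genes. *Polr3f* had 312, 289.9 and 296 normalized counts in control females, below the 525, 579.96 and 578 of mutant females, and 275, 318 and 285 in control males against 383, 307 and 322 in mutant males. Limma called 0 subunits in males, where 3 had an unadjusted p under 0.05 and limma voom called 0. In males 3 were called lower in a fit over all 12 libraries, 3 lower without mutant library A and 1 lower when scaled by total reads. In a test of the change in males minus that in females, 9 of the 18 were called, all with the lower value in males, beside 21.2% of all 22014 genes called in that test (10.6% with a higher and 10.7% with a lower value).

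The 19 transcription factors and regulators of Pol III were mixed. In females 7 rose and 3 fell (52.6% called, beside 50.1% of all genes), and scaled by total reads 6 rose and 5 fell. *Snapc5* (0.68 ± 0.12, adjusted p = 0.00011, limma), a subunit of the complex that binds upstream promoters such as that of RNase P RNA, and *Gtf3c6* (0.66 ± 0.09, adjusted p = 9.33e-06), a TFIIIC subunit, rose. *Gtf3c1*, the largest TFIIIC subunit, fell from 1619, 1725 and 1616 normalized counts to 1034, 1061 and 1029 (log2 fold change -0.67 ± 0.05, adjusted p = 1.18e-08, limma). *Snapc4* (0.52) and *Tbp* (0.48) also rose, and the repressor *Maf1* fell by 0.31 and *Snapc3* by 0.24 on the log2 scale. In males *Zfp143*, which activates snRNA-type promoters, was the gene called (-0.45 ± 0.12, adjusted p = 0.049, limma). Its adjusted p lay between 0.0048 and 0.20 over the alternatives, and it missed the threshold in 7 of 12 fits.

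The 8 telomerase proteins passed the test in females, 6 higher and 2 lower, beside 50.1% of all genes called. However, 1 of the lower calls was lost without control library C, mutant library A or mutant library B. A fit over all 12 libraries called 3 as higher and 1 as lower, and *Nop10*, lower in females by limma, missed the threshold in 4 of 12 fits. *Tert*, the catalytic subunit that uses *Terc* as its template, fell from 181, 202 and 163 normalized counts to 105, 82.5 and 84.9. This was a log2 fold change of -0.9997 ± 0.12 (adjusted p = 2.23e-06, limma), opposite in sign to the difference of *Terc*. *Wrap53* (0.93 ± 0.10, adjusted p = 4.91e-07, limma), which brings telomerase to Cajal bodies, and the pseudouridine synthase *Dkc1* (0.64 ± 0.08, adjusted p = 1.52e-06) rose. In males *Naf1* (-0.89 ± 0.16, adjusted p = 0.012, limma), *Nhp2* (-0.71 ± 0.14, adjusted p = 0.016) and *Nop10* (-0.52 ± 0.13, adjusted p = 0.047), which assemble or form the H/ACA particle, fell. These were 37.5% of the list, beside 7.80% of all genes called in males. Over 12 fits *Nop10* in males missed the threshold in 7, and *Naf1* and *Nhp2* each in 4. Those of *Naf1* and *Nhp2* all left out a library (control A or C, or mutant B or C). *Tert* in males stood at 165, 152 and 221 in controls and 131, 166 and 143 in mutants, which overlapped.

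Of the 7 proteins of the 7SK particle and P-TEFb, *Larp7* (0.43 ± 0.08, adjusted p = 0.00013, limma), which binds and protects 7SK, and *Hexim1* (0.40 ± 0.07, adjusted p = 0.00013), the P-TEFb inhibitor, rose in females. These were 28.6% of the list, beside 50.1% of all genes called in females. *Larp7* missed the threshold in 1 of 12 fits, the fit over all 12 libraries (adjusted p = 0.12, limma). Limma called 0 of the 7 in males, with 2 at an unadjusted p under 0.05 and 0 by limma voom. In males the fit over all 12 libraries called 1 higher and 1 lower, and the fit without mutant library A 1 lower. Of the La and Ro proteins, *Trove2*, which encodes Ro60, rose by 0.20 in females (adjusted p = 0.017, limma; 0.49 at the highest over the alternatives), and *Ssb*, the La protein, had 0.16 (adjusted p = 0.086).

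**Figure D4:**
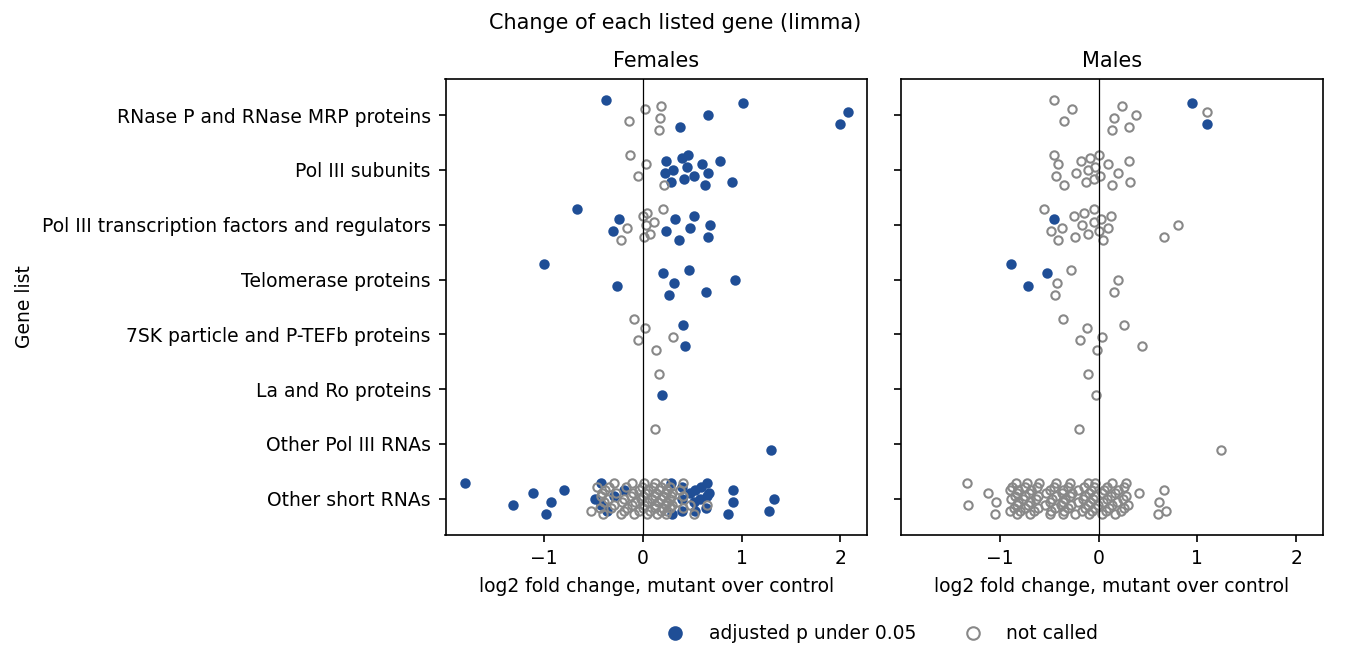
Log2 fold change (mutant over control, limma) of each gene of the protein lists, of *Vaultrc5* and *Bc1*, and of the other short RNAs, in females (left) and males (right). Filled points passed an adjusted p of 0.05, and the 18 Pol III subunits had 14 filled points in females, all to the right of 0, and 0 in males.

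The cells were described by sums over marker genes. All 5 genes taken as EpiLC markers (*Fgf5*, *Otx2*, *Pou3f1*, *Dnmt3b* and *Pou5f1*) were present in every group. Their sums were 8875 to 9089 normalized counts in control females and 10858 to 11450 in mutant females. In males they were 8740 to 15120 in controls and 5610 to 8908 in mutants. Such sums weigh highly counted genes most and do not show how each marker moved. The 5 markers of naive ESCs had higher sums in mutants of both sexes, at 2215 to 2334 against 616 to 639 in females and 2948 to 4469 against 884 to 1925 in males. The sum of the 4 endoderm markers was higher in mutant females, at 2028 to 2145 against 141 to 193. In mutant males it was lower, at 174 to 827 against 995 to 1169. The sum of the 5 markers of feeder fibroblasts was lower in mutant females, at 655 to 724 against 2164 to 2202. In mutant males it was higher, at 3806 to 4485 against 507 to 714. None of these 19 genes had a group mean of 0. The paper describes ESC culture on feeders, then passages on gelatin and differentiation on fibronectin, with no feeder layer named at these later steps. Whether naive, endoderm or fibroblast cells had a part in the fall of the *Rprl* genes was not tested. In such bulk samples, fewer cells of a type and less RNA per cell cannot be told apart.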

How the data were processed

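Total RNA depleted of ribosomal RNA was sequenced by the authors as single-end reads of 50 bases and mapped to mm9 with TopHat2 2.1.0 and Bowtie2 2.2.6.0, with up to 1 mismatch and unique hits kept. The submitters' notes also name DESeq and Cuffdiff. The counting tool for these libraries, the gene annotation and the strand setting are not given in the sources used here. The authors deposited 2 tables, 1 per sex, whose signal columns are mean normalized counts per genotype. Their fold change, log2 fold change and p-value columns hold the study's own comparison and were not used.

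The members and lists were chosen with earlier results of these data known. Named genes were the members, per list the 3 largest called changes in each sex, the other Pol III RNAs in the tables, *Kdm5c*, the markers, and the 5 genes most like a member, 1 of which is not reported here. Whole reads per library were solved from the group means up to 10000, where each gene searched had 1 solution. Above that, 51 to 77 genes per genotype were left out, 103 in all. *Rprl2* and *Rprl3* had 9 to 172 possible combinations in controls. Libraries cannot be tied to ESC lines, and depth gives counting error only. Limma 3.58.1 (R 4.3.3) was fitted per sex to log2(normalized count + 1) with a trend, and over 12 libraries for the difference between the sexes, with Benjamini-Hochberg adjustment at 0.05. Solver and fits were tested on simulated data. Sequences were read from mm9 and compared with blastn 2.17.0, and GENCODE M1 gave the genes. Alternatives were a pseudocount of 0.1, a minimum mean of 10, limma voom, other scalings, a joint fit and leaving out libraries. Python 3.11.15, numpy 2.4.6, pandas 2.3.3 and matplotlib 3.10.9 were used.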

Additional observations from a re-analysis of the deposited data

Results flagged for a closer look

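For 11 of the named genes, the change in males differed from that in females by limma's test of the interaction of sex and genotype. These genes were named for a large change in one sex or the other, which favors a difference between the sexes, so their number is not set against the share of all genes. The log2 fold change in males was lower than in females by 0.70 for *Polr3f* (-0.70, adjusted p = 0.0037), and the difference was -0.77 for *Crcp* (0.020), -1.05 for *Snapc5* (0.0052), -1.21 for *Gtf3c6* (0.012), -0.74 for *Wrap53* (0.024), -1.06 for *Dkc1* (0.0026), -1.20 for *Naf1* (0.00029), -0.91 for *Nhp2* (0.00064) and -1.50 for *Vaultrc5* (0.023), with limma's adjusted p in brackets. It was 0.62 for *Gtf3c1* (0.0017) and 0.73 for *Tert* (0.040). Over 16 fits the difference was not called in 8 for *Tert*, 5 for *Vaultrc5*, 4 for *Wrap53* and 2 for *Crcp*, with an adjusted p by limma of up to 0.10 (*Tert*), and was called in each of the 16 for the other 7 genes. *Naf1* and *Nhp2* passed the test in opposite directions in the 2 sexes, though not in every fit. In females each missed the threshold in 1 of 12 fits, that over all 12 libraries (adjusted p = 0.071 and 0.17, limma). In males each missed it in 4 of 12.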

How the results depend on the processing

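The *Rprl* genes kept their fall, and *Terc* its rise, under every alternative run. Leaving out each library in turn gave log2 ratios of -5.13 to -4.76 in females and -5.61 to -5.16 in males for *Rprl1*, -7.76 to -7.57 and -8.60 to -6.98 for *Rprl2*, -7.11 to -6.88 and -7.60 to -6.59 for *Rprl3*, and 0.37 to 0.52 and 0.55 to 1.10 for *Terc*. A pseudocount of 0.1 took *Rprl1* in males to -5.75, since its mutant libraries hold few reads. For *Rprl2* and *Rprl3* other scalings and leaving out a control library were not run, because their control libraries were not resolved. A fit over all 12 libraries called 29 of the protein genes in females, against 41 in the main fit, and 18 in males. It called 7 of the other short RNAs in females and 7 in males, and the cause was not tested. Leaving out a library gave 39 to 41 protein genes in females, 0 to 17 in males, and 16 to 33 for males minus females, the highest without male mutant library A. For the other short RNAs this gave 20 (without female control library A) to 38 (without female mutant library B) in females, and 0 to 4 in males. Of 883 values of single named genes under alternatives, 800 kept their direction and side of the threshold, 64 lost the call, 19 gained it and 0 were reversed. The median over all genes in males was -0.16 and 0.001 with a minimum mean of 10. No paired analysis was possible because the group means carry no replicate numbers.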
